A study of Homo sapiens with 6 samples.

Results

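WNT5A, its close relatives among the Wnt ligands and the receptors that carry their signal were examined in SiHa cells in which CNN3 had been silenced. The 10 genes are the ligands WNT5A, WNT5B, WNT7A and WNT7B, the Frizzled receptors FZD2, FZD6 and FZD7, and the receptors ROR1, ROR2 and RYK. They were taken by symbol from the 48162 genes of the count table. They were chosen because the WNT5A level had been seen to be higher after CNN3 silencing in these same samples, so the difference in WNT5A between the groups is given as a description and carries no test. WNT5A is also among the genes that the study itself selected from these samples for follow-up. That follow-up measured the selected genes again with RT-PCR. The study reports that most of them changed as in the sequencing. It names WNT5A (spelled WINT5A there) as an exception, so the study does not count the WNT5A difference as reproduced by its RT-PCR. That RT-PCR used SiHa cells and also CaSki, another cervical cancer line. The study's text does not say in which of these lines WNT5A departed from the sequencing. The other 9 genes were added for their kinship or their binding to WNT5A.

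Wnt proteins are secreted, lipid-modified ligands that bind Frizzled receptors, membrane proteins that span the membrane several times. Together with the co-receptors LRP5 and LRP6 this binding stabilises beta-catenin, which then switches on target genes with TCF and LEF factors. WNT5A and WNT5B act mostly without beta-catenin, through Frizzled receptors together with ROR1, ROR2 or RYK, and reach the cytoskeleton through JNK and calcium signalling. WNT7A and WNT7B can act by either route. In epithelial tumours, WNT5A signalling is best known for its effects on cell polarity and migration.

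SiHa is an established human cervical cancer cell line. The cells were transfected with si-CNN3#1, the small interfering RNA (siRNA) that the sample labels name si-CNN3 and that targets CNN3 mRNA, or with the control siRNA si-NC, and each group has 3 samples. Per the labels, the medium was changed after 24 h and RNA was collected 48 h after transfection. For siRNA transfections the study's methods give a somewhat earlier medium change. The study describes its assays as independent experiments. Both groups received transfection reagent and an siRNA, no untransfected cells were analysed here, and a line with 1 siRNA against CNN3 is the only model of the silencing in these samples.

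The siRNAs are what set the groups apart, so their sequences are shown here, 5′ to 3′, with the sense strand as the labels give it and, below it, the guide strand worked out by complementing and reversing the sense strand without its 2 last bases. Capitals mark the seed, bases 2 to 8 of the guide, with which an siRNA can also pair with the 3′ untranslated region (UTR) of an mRNA that it was not designed against.
si-CNN3#1 sense: gcagaugggaaccaacaaatt
si-CNN3#1 guide: uUUGUUGGuucccaucugc
si-NC sense: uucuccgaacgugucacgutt
si-NC guide: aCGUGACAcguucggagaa
The 7 letters CCAACAA, which pair with the si-CNN3#1 seed, and TGTCACG, which pair with the si-NC seed, were searched for on the transcript strand of the longest coding transcript of each gene in GENCODE release 29. Neither was found in the 3′ UTR of any of the 10 genes, which run from 184 bases in FZD2 to 4376 bases in WNT5A. Among the 12646 tested genes with a 3′ UTR, 8.75% held the si-CNN3#1 site and 3.03% the si-NC site, with a median UTR of 1274 bases. The absence of these letters says only that they are not in these UTR models.

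Counts on genes summed to between 18147028 and 19026341 in the si-CNN3 samples and to between 20287139 and 24976517 in the si-NC samples, so every si-NC sample was the deeper. CNN3, which encodes the actin-binding protein calponin 3, was at 55.2 ± 2.97 CPM in si-NC and 28.1 ± 2.95 in si-CNN3 (CPM, counts scaled to a common total of each sample; SD, n = 3). The groups did not overlap (p = 0.1 in a two-sided exact permutation test, which 3 samples against 3 cannot bring lower). The si-NC replicate 2 stood apart by 4 genes of blood cells (CSF3R, IGHG1, IGHM and HBB) with 324 counts in all, of which HBB had 185 and 0 in every other sample. Of the epithelial markers, which SiHa should express, 4 of the 7 tested passed the test described below, beside 13.3% of all tested genes. KRT17 and TP63 were higher and KRT8 and KRT18 lower with si-CNN3. The epithelial markers summed to 796 to 859 FPKM (fragments per kilobase, scaled to the sample's total) with si-CNN3 and 836 to 890 with si-NC. KRT8 alone was at 451 to 544 FPKM over all samples. EPCAM (4.90 to 6.75 FPKM), KRT19 (6.11 to 7.34 FPKM) and TP63 (1.11 to 2.22 FPKM) were low, and KRT5 had 4 to 11 counts. Of the 5 tested fibroblast markers, 0 passed in edgeR (1 had an unadjusted p under 0.05) and 0 of the 2 with an adjusted p in DESeq2 (8.94 to 9.47 FPKM summed with si-CNN3 and 8.57 to 9.49 with si-NC). CD14 was the only one of the 3 tested blood cell markers to pass, lower with si-CNN3 (all 5 markers summed to 111 to 116 against 139 to 144 FPKM). The part of these differences in the results on the Wnt genes was not tested, and in such bulk samples fewer cells of a type and less RNA per cell cannot be told apart.

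Levels of different genes were compared per length, as FPKM, because longer transcripts yield more fragments. WNT5A was by far the highest of the 10 genes, with a mean of 294 FPKM over the 6 samples (range 274 to 318). It ranked 313 to 327 among all genes of the table in the si-CNN3 samples and 378 to 388 in the si-NC samples. RYK followed with 43.8 FPKM (41.4 to 46.6) and FZD6 with 29.3 FPKM (27.6 to 31.6). These 3 genes were separated from each other and from the rest in every sample.

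Below them lay WNT7B with 4.86 FPKM (3.58 to 6.54), FZD2 with 3.44 FPKM (2.75 to 3.87), FZD7 with 2.80 FPKM (2.56 to 3.06) and WNT5B with 2.45 FPKM (2.18 to 2.69). Neighbours in this order overlapped in their ranges over the samples, but within each of the 6 samples FZD2 was above FZD7 and FZD7 above WNT5B. WNT7B was above FZD2 except in si-NC replicate 1, where it was at 3.58 FPKM against 3.85 for FZD2. ROR2 was at 0.729 FPKM (0.636 to 0.846), ROR1 at 0.118 FPKM (0.0541 to 0.246), and WNT7A had no count in any sample. The length behind the deposited FPKM is short for WNT5A, 2553 bases against 6176 bases in its longest coding transcript. With the length of the longest coding transcript instead, which was chosen after the data were seen, WNT5A was still highest at 122 CPM per kilobase, RYK was at 27.1 and FZD6 at 21.4, and WNT7B moved from rank 4 to rank 6. The plot of levels by sample shows this order.

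**Figure D1:**
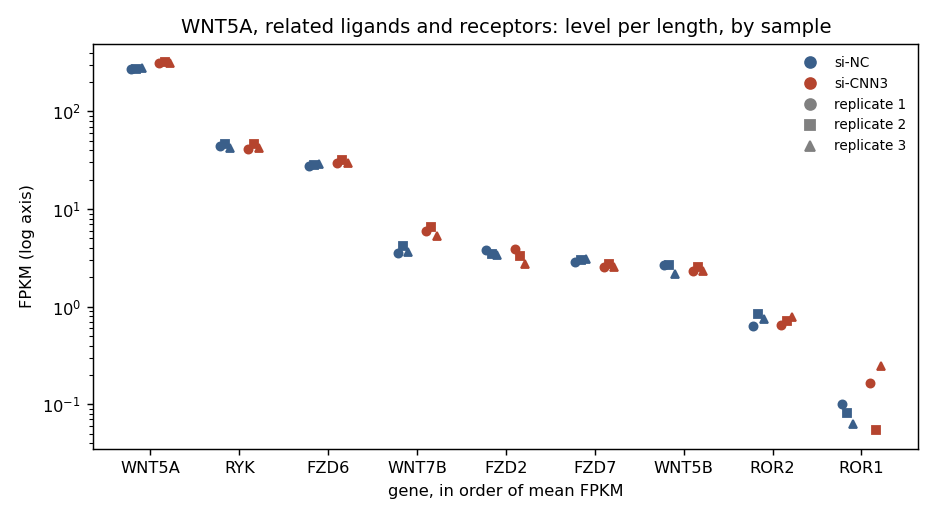
Level per length (FPKM, log axis) of the 9 detected genes in each of the 6 samples, with si-NC in blue, si-CNN3 in red and a marker shape for each replicate number. WNT5A sits between 274 and 318 FPKM, RYK and FZD6 lie between 27.6 and 46.6 FPKM, and ROR1, the lowest, lies between 0.0541 and 0.246 FPKM, while WNT7A, with no counts, cannot be drawn on a log axis.

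The groups were compared on normalised counts with edgeR's quasi-likelihood test, and a gene passed when its p, adjusted by Benjamini-Hochberg over all 15860 tested genes, was at most 0.05. Of the 7 tested genes other than WNT5A, 1 passed, WNT7B, which was higher with si-CNN3. The background over all tested genes was 13.3% passing, 6.17% higher and 7.14% lower. The direction of that background depends on the scaling, with 978 genes higher and 1133 lower here but 1294 higher and 863 lower when samples were scaled by total counts only, a change that moved the median log2 fold change of all genes from 0.0023 to 0.019. The median log2 fold change of the 7 genes was -0.09, with 5 of them below 0. In 3 of the 7 (WNT7B, FZD6 and FZD7) the groups did not overlap, against 28.2% of all tested genes (13.9% with si-CNN3 above and 14.3% with si-CNN3 below).

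WNT5A (ENSG00000114251, at 55465715 to 55490539 on the minus strand of chromosome 3, build GRCh38) gave 14228, 17445 and 15375 counts in si-NC replicates 1 to 3 and 14983, 15443 and 14464 in the si-CNN3 replicates. Normalised, these were 709, 701 and 713 CPM in si-NC and 795, 804 and 792 CPM in si-CNN3. All si-CNN3 samples were above all si-NC samples, and samples of a group lay close together. Means of 708 ± 6.10 CPM for si-NC and 797 ± 6.32 CPM for si-CNN3 (SD, n = 3) put the level after silencing at 113% of control. The log2 fold change was 0.17. This difference is the one for which the genes were chosen.

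WNT5A also filled most of the Wnt ligand pool. The FPKM of all 19 Wnt ligands summed to 347 ± 3.57 (SD, n = 3) with si-CNN3 and 306 ± 2.30 with si-NC. WNT5A held 90.5% ± 0.169 of this sum with si-CNN3 and 89.8% ± 0.117 with si-NC, which follows from the same WNT5A values. By the length of the longest coding transcript the shares were 88.9% and 88.2%. Of the ligands outside the 10 genes, the 2 highest were WNT3, with 2.93% of the sum with si-CNN3 and 3.44% with si-NC, and WNT6, with 2.30% and 2.79%.

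WNT7B (ENSG00000188064, at 45920362 to 45977129 on the minus strand of chromosome 22, build GRCh38) encodes a ligand known from lung, kidney and skin development. The si-NC replicates held 140, 202 and 151 counts of it and the si-CNN3 replicates 216, 240 and 186. Normalised levels were 6.98, 8.12 and 7.0 CPM in si-NC and 11.5, 12.5 and 10.2 CPM in si-CNN3. Each si-CNN3 sample was above each si-NC sample, and si-NC replicate 2 was the highest of its group.

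WNT7B rose with si-CNN3 to 155% of its level with si-NC (11.4 ± 1.16 against 7.36 ± 0.650 CPM, SD, n = 3). The log2 fold change of 0.62 had an SE of 0.10 and a 95% interval from 0.43 to 0.82 (edgeR, adjusted p = 2.42e-06). In size the change exceeded that of 97.6% of tested genes, and by fold change WNT7B ranked 122 among the 978 genes that were higher. Without si-NC replicate 2 the log2 fold change was 0.70. WNT7B passed under every alternative that was run, with adjusted p values up to 0.0454 in limma without a filter. Despite the rise it stayed a small part of the ligand pool, at 1.71% ± 0.164 of the summed FPKM with si-CNN3 and 1.24% ± 0.122 with si-NC.

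WNT5B (ENSG00000111186, at 1529891 to 1647243 on the plus strand of chromosome 12, build GRCh38) is the closest relative of WNT5A and was far lower, at 61, 74 and 53 counts in si-NC and 49, 54 and 47 in si-CNN3. The groups overlapped (2.82 ± 0.319 CPM in si-NC, 2.66 ± 0.131 in si-CNN3, SD, n = 3). Its log2 fold change, -0.09 with an SE of 0.17 (edgeR, adjusted p = 0.822), had a 95% interval from -0.43 to 0.26, so at these counts neither a change of the size seen in WNT5A nor its opposite could be told from none. WNT7A (ENSG00000154764, at 13816258 to 13880121 on the minus strand of chromosome 3), the closest relative of WNT7B, was at 0 counts in all 6 samples, which allows up to between 0.121 and 0.164 CPM, the worth of 3 counts in each sample. This limit covers counting error only.

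**Figure D2:**
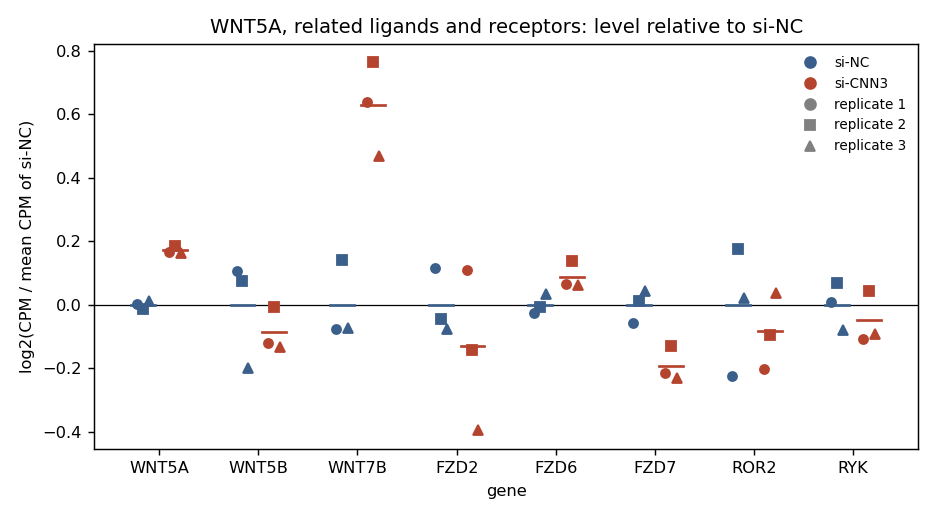
Normalised level of the 8 tested genes in each sample, as log2 of its CPM over the mean CPM of si-NC, with si-NC in blue, si-CNN3 in red and a horizontal bar at each group mean. The si-CNN3 samples lie above all si-NC samples for WNT5A, WNT7B and FZD6 and below them for FZD7, and the groups overlap for WNT5B, FZD2, ROR2 and RYK.

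The plot of levels relative to si-NC also shows how the spread differs between genes. The 6 WNT5A values fall into a pair of tight groups. For the low genes FZD2, ROR2 and WNT5B, the lowest and highest sample within each group lie farther apart than the group means.

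FZD6 (ENSG00000164930, at 103298433 to 103332866 on the plus strand of chromosome 8, build GRCh38) is a Frizzled receptor known for planar cell polarity in skin and hair. Its counts were 1547, 1942 and 1732 in si-NC and 1547, 1659 and 1494 in si-CNN3. Normalised, that made 77.1, 78.0 and 80.3 CPM in si-NC and 82.0, 86.4 and 81.8 CPM in si-CNN3. The si-CNN3 samples were above the si-NC samples by a small step. At a log2 fold change of 0.09 (SE 0.04, 95% interval 0.01 to 0.16) FZD6 did not pass (edgeR, adjusted p = 0.112). With scaling by total counts only it passed, with a log2 fold change of 0.11 and an adjusted p of 0.0494, and over all alternatives the adjusted p ran from 0.0494 to 0.403.

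FZD7 (ENSG00000155760, at 202034587 to 202038445 on the plus strand of chromosome 2) is a receptor active in stem cells of the gut epithelium. Counts of FZD7 were 222, 289 and 256 in si-NC and 187, 202 and 179 in si-CNN3, or 11.1, 11.6 and 11.9 CPM against 9.92, 10.5 and 9.80 CPM, so that all si-CNN3 samples were below. The log2 fold change, -0.19 with a 95% interval from -0.37 to -0.02 (SE 0.09), did not pass either (edgeR, adjusted p = 0.146).

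FZD2 (ENSG00000180340, at 44557459 to 44559570 on the plus strand of chromosome 17) is a receptor for WNT5A in several cell types. There were 155, 172 and 146 counts of FZD2 in si-NC and 145, 124 and 99 in si-CNN3. Its groups overlapped and its si-CNN3 samples scattered most (7.13 ± 0.517 CPM in si-NC, 6.52 ± 1.14 in si-CNN3, SD, n = 3). FZD2 had a log2 fold change of -0.12 (SE 0.11, 95% interval -0.35 to 0.11; edgeR, adjusted p = 0.561), which ran from -0.26 to -0.01 as each sample was left out.

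The makeup of the Frizzled receptors was compared as the share of each in the summed FPKM of the 10 Frizzled genes. The sum itself was 60.0 ± 1.37 FPKM (SD, n = 3) with si-CNN3 and 59.7 ± 0.832 FPKM with si-NC. FZD6 held the largest share, with 49.3, 51.5 and 50.9% with si-CNN3 and 47.0, 46.6 and 48.2% with si-NC, so each si-CNN3 sample was above each si-NC sample and the means differed by 3.28 percentage points. FZD7 held 4.38% ± 0.111 with si-CNN3 and 4.97% ± 0.134 with si-NC, again without overlap. Both shares gave p = 0.1 in the exact permutation test (two-sided), the lowest this design can give, and 0.15 after adjustment over the 3 shares tested, so these differences could not pass a threshold of 0.05 in this design. The FZD2 share, 5.50% ± 0.878 and 5.99% ± 0.496, overlapped between groups (exact permutation p = 0.4, adjusted p = 0.4). FZD1, which is not among the 10 genes, was the next largest with 19.2% ± 0.0973 with si-CNN3 and 20.6% ± 0.671 with si-NC.

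**Figure D3:**
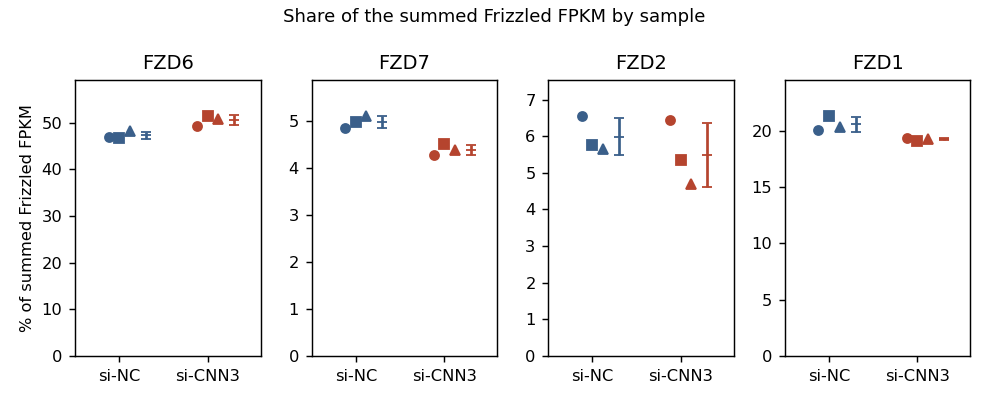
Share of FZD6, FZD7, FZD2 and FZD1 in the summed FPKM of the 10 Frizzled genes (%), by sample, with si-NC in blue, si-CNN3 in red and bars for the mean ± SD of 3 samples; each panel has its own axis from 0. The si-CNN3 samples lie above the si-NC samples for FZD6 (49.3 to 51.5% against 46.6 to 48.2%) and below them for FZD7 and FZD1, and the groups overlap for FZD2.

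The plot of Frizzled shares shows that these shifts are a few percentage points of a sum that was nearly equal in both groups. The shares are tied to each other, since a larger share of FZD6 leaves less for the rest.

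RYK (ENSG00000163785, at 134065303 to 134250744 on the minus strand of chromosome 3, build GRCh38) is a receptor with a Wnt-binding domain and an inactive kinase domain. Counts were 1639, 2116 and 1655 in si-NC and 1421, 1607 and 1391 in si-CNN3. The normalised levels overlapped (81.1 ± 4.17 CPM in si-NC, 78.4 ± 4.58 in si-CNN3, SD, n = 3). RYK did not pass, with a log2 fold change of -0.05 and an SE of 0.04 (edgeR, adjusted p = 0.483). Its 95% interval, from -0.13 to 0.03, does not reach the 0.17 of WNT5A in either direction, which makes RYK, with FZD6, the receptor for which these samples set the narrowest bounds.

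ROR2 (ENSG00000169071, at 91563091 to 91950162 on the minus strand of chromosome 9), the receptor tyrosine kinase best known to bind WNT5A, was low, at 22, 36 and 28 counts in si-NC and 21, 23 and 24 in si-CNN3. Its levels overlapped (1.28 ± 0.176 CPM in si-NC, 1.21 ± 0.101 in si-CNN3, SD, n = 3), and its log2 fold change of -0.10 had an SE of 0.25 and a 95% interval from -0.61 to 0.41 (edgeR, adjusted p = 0.867). The sign rested on si-NC replicate 2, since the log2 fold change was 0.0085 without it. ROR1 (ENSG00000185483, at 63774022 to 64181498 on the plus strand of chromosome 1), the relative of ROR2, was lower still, at 6, 6 and 4 counts in si-NC and 9, 3 and 13 in si-CNN3. It fell to the filter on low counts and was tested only without that filter, where its log2 fold change of 0.86 did not pass (edgeR, adjusted p = 0.471). Both ROR genes were therefore detected at levels where only changes much larger than that of WNT5A could have been seen.

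Some of the 10 genes share their stretch of chromosome with a gene on the other strand, and the sources used here do not give the strand setting of the counting, so reads from such pairs cannot be told apart for certain. WNT5A-AS1, antisense to WNT5A, had 455 to 619 counts, far below WNT5A, with a log2 fold change of 0.09 (edgeR, adjusted p = 0.391). FBXL14 overlaps WNT5B and had 269 to 395 counts, more than WNT5B itself, with a log2 fold change of -0.10 (edgeR, adjusted p = 0.434), so the WNT5B level is uncertain by that overlap. BAALC-AS1, opposite FZD6, had 4 to 7 counts, HMGB3P14, opposite RYK, had 1 to 8, and ROR1-AS1 had 0 to 2.

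The genes whose pattern over the 6 samples was most like that of WNT5A were sought among all tested genes, by the root-mean-square difference of their log2 CPM, each centred on its own mean. They were ARID5B (0.00914), LGALS3 (0.0132), GANAB (0.0136), HERC4 (0.0151) and CCT4 (0.0153), against a median of 0.129 over all tested genes. ARID5B is a chromatin-binding protein, LGALS3 encodes galectin-3, GANAB is a glucosidase of the endoplasmic reticulum, HERC4 is a ubiquitin ligase and CCT4 is a subunit of the cytosolic chaperonin. Their log2 fold changes lay between 0.15 (LGALS3 and CCT4) and 0.19 (HERC4), which the choice by likeness fixes. With 3 samples a group this pattern is little more than the step between the groups, so many genes can come close to it.

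The other genes of the Wnt pathway were taken as 6 lists by role. Together they held 147 genes, of which 107 were tested and 27 passed (25.2%), 7 higher and 20 lower with si-CNN3. Of all tested genes 13.3% passed (6.17% higher and 7.14% lower). These shares were not matched for level, and genes with more counts pass more readily, so they cannot show that the pathway was hit more often. The median log2 fold change of the lists was -0.03, against 0.0023 over all tested genes.

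Among the 15 other Wnt ligands, 8 were tested and 1 passed, with a median log2 fold change of -0.03. WNT9A was higher with si-CNN3, at 91, 121 and 106 counts in si-NC, 111, 136 and 99 in si-CNN3 and a log2 fold change of 0.36 with an SE of 0.13 (edgeR, adjusted p = 0.0442). That call of edgeR did not hold without a filter on low counts (adjusted p = 0.0594), in DESeq2 (adjusted p = 0.250) or with any of 5 samples left out (without si-CNN3 replicate 2 the log2 fold change was 0.24). WNT3 had a log2 fold change of -0.07 and WNT6 of -0.12, and neither passed. WNT1, WNT2, WNT3A, WNT4, WNT8A, WNT9B and WNT16 were too low to be tested.

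Among the 12 other Frizzled receptors and co-receptors, 11 were tested and 1 passed, with a median of -0.11. LRP5, a co-receptor for signalling through beta-catenin, fell with si-CNN3, by 0.12 on the log2 scale (from 189 ± 2.01 CPM in si-NC to 173 ± 5.03 in si-CNN3, SD, n = 3; edgeR, adjusted p = 0.00181). LRP6, its relative, had a log2 fold change of 0.05, which did not pass. PTK7, a co-receptor of planar cell polarity, had one of -0.20 and did not pass (edgeR, adjusted p = 0.083).

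Among the 31 genes of Wnt secretion and extracellular control, 15 were tested and 4 passed, 1 higher and 3 lower, with a median of 0.06. SFRP1, a secreted protein that binds Wnt ligands, gave 375, 457 and 352 counts in si-NC and 225, 214 and 190 in si-CNN3. It fell by 0.67 on the log2 scale with an SE of 0.08 (edgeR, adjusted p = 2.35e-09), from 17.8 ± 1.29 CPM in si-NC to 11.2 ± 0.763 in si-CNN3 (SD, n = 3), and the groups did not overlap. NOTUM, an enzyme that removes the lipid from Wnt ligands, had a log2 fold change of -0.34 (edgeR, adjusted p = 0.00351), and KREMEN1, a receptor for Dickkopf proteins, one of -0.22 (adjusted p = 0.00113). NOTUM did not pass under 2 of the alternatives, DESeq2 among them (adjusted p = 0.0601). KREMEN1 did not pass under 3, limma on log2(FPKM + 1) among them (adjusted p = 0.0678), and its adjusted p ran up to 0.207 over the alternatives. DKK1, a secreted inhibitor of LRP5 and LRP6, rose, with a log2 fold change of 0.30 (27.2 ± 1.05 CPM in si-NC, 33.6 ± 0.837 in si-CNN3, SD, n = 3; edgeR, adjusted p = 4.78e-05). WLS, which carries Wnt ligands to the cell surface, and VPS35, which recycles WLS, were the highest of the list and did not pass, with log2 fold changes of -0.09 and 0.06.

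Among the 47 genes of signalling without beta-catenin, the route on which WNT5A mostly acts, 38 were tested and 11 passed, 3 higher and 8 lower, with a median of -0.05. The higher genes were JUN, a transcription factor activated by JNK (edgeR log2 fold change 0.38, adjusted p = 2.12e-07), PRKCD, a protein kinase C (0.23, adjusted p = 0.0231), and NFATC3, a calcium-responsive factor (0.11, adjusted p = 0.0248). The 4 lower genes with the smallest p in edgeR were PPP3CA, a catalytic subunit of calcineurin (-0.45, adjusted p = 1.9e-15), CDC42, a regulator of cell polarity (-0.30, adjusted p = 5.89e-13), and the planar cell polarity cadherins CELSR2 (-0.27, adjusted p = 2.44e-05) and CELSR1 (-0.18, adjusted p = 6.01e-05). PPP3CA and CDC42 are among the genes that the study picked from these samples, so their direction is not independent evidence here. The calls of PRKCD and NFATC3 were lost under 5 and 8 of the alternatives, DESeq2 among them (adjusted p = 0.177 and 0.114). Among these losses, PRKCD did not pass in edgeR without si-CNN3 replicate 1, si-NC replicate 2 or si-NC replicate 3 (adjusted p = 0.131, 0.0809 and 0.053), nor NFATC3 without si-CNN3 replicate 1, si-CNN3 replicate 2 or si-NC replicate 3 (adjusted p = 0.0858, 0.126 and 0.161). JUN, CELSR1 and CELSR2 each lost their call under 1 alternative (adjusted p up to 0.0751, 0.114 and 0.0592). RAC1, among the most abundant of the list, did not pass, with a log2 fold change of 0.03.

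All 26 genes of the beta-catenin core pathway were tested and 8 passed, 1 higher and 7 lower, with a median of -0.03. CTNNB1, which encodes beta-catenin itself, had a log2 fold change of -0.04 and did not pass (edgeR, adjusted p = 0.44). The strongest falls by p in edgeR were those of the co-repressors TLE2 (-0.49, adjusted p = 1.39e-08) and TLE3 (-0.14, adjusted p = 0.000107), and AXIN1 (-0.22, adjusted p = 3e-05) and AMER1 (-0.35, adjusted p = 7.16e-05), both of which take part in breaking down beta-catenin. TNKS2, a tankyrase that marks axins for breakdown, was the higher gene (0.09, edgeR adjusted p = 0.0446). Its call was lost under 10 of the alternatives. These included DESeq2 (adjusted p = 0.151) and edgeR with any sample but si-CNN3 replicate 1 left out (adjusted p from 0.0651 to 0.195). CSNK1E, a casein kinase and with CTNNB1 among the most abundant of the list, fell by 0.12 on the log2 scale (edgeR, adjusted p = 0.000953). The calls of AMER1 and CSNK1E were each lost under 1 alternative (adjusted p up to 0.144 and 0.0955).

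Among the 21 beta-catenin target genes, 13 were tested and 4 passed, 2 higher (DKK1 and CD44) and 2 lower (MYC and NOTUM), with a median of 0.0004. CD44, a cell surface receptor for hyaluronan, had a log2 fold change of 0.11 (edgeR, adjusted p = 0.00607) and MYC, a growth-promoting transcription factor, one of -0.18 (adjusted p = 5.03e-05). CD44 did not pass under 2 of the alternatives, edgeR without si-NC replicate 2 among them (log2 fold change 0.08, adjusted p = 0.101). MYC did not pass under 1 (adjusted p up to 0.0620), and NOTUM did not pass in DESeq2, as given above. DKK1 and NOTUM are in this list and in that of extracellular control. AXIN2 and LEF1, targets in many tissues, were too low to be tested, and CCND1 had a log2 fold change of 0.04, which did not pass (edgeR, adjusted p = 0.88).

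**Figure D4:**
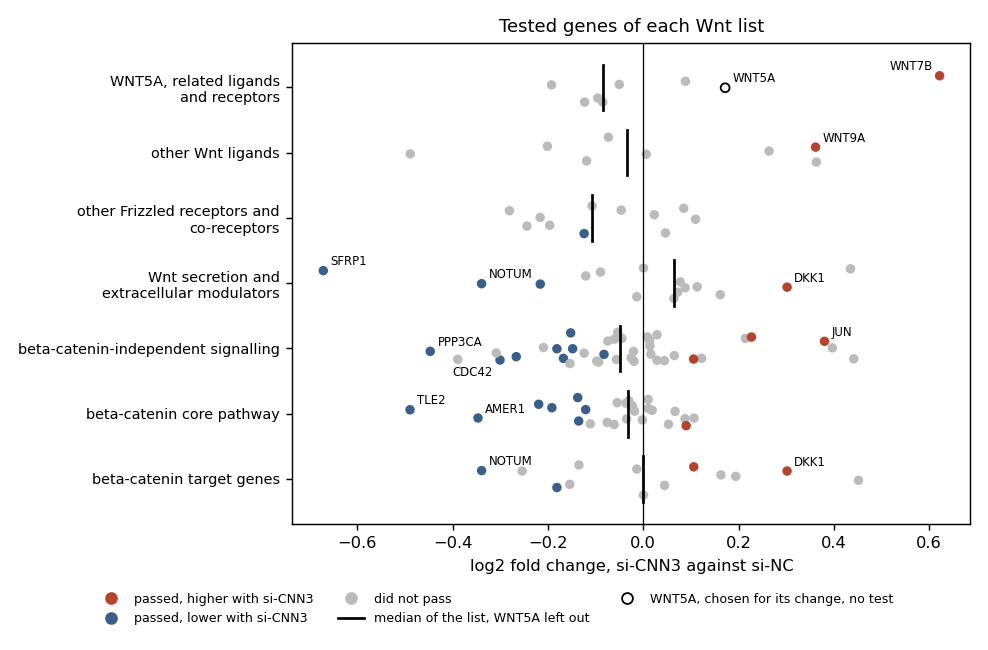
Log2 fold change (si-CNN3 against si-NC) of every tested gene of the 10 genes and of the 6 Wnt lists, in red where the gene passed and was higher, in blue where it passed and was lower, in grey otherwise, with WNT5A as an open circle without a test and a vertical bar at each median. WNT7B lies farthest to the right at 0.62 and SFRP1 farthest to the left at -0.67, and the medians of the 6 lists lie between -0.11 and 0.06.

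As the plot of the lists shows, most genes of the pathway lay close to 0, and WNT7B and SFRP1 lay farthest from it, in opposite directions. They were not the only ones away from 0. Among those that passed, TLE2 (-0.49), PPP3CA (-0.45), AMER1 (-0.35), NOTUM (-0.34), JUN (0.38) and WNT9A (0.36, with the limits given above) were too. So were some genes that did not pass.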

How the data were processed

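RNA of SiHa cells was sequenced in 6 samples, 3 transfected with si-CNN3 and 3 with si-NC, grouped by the sample labels, which name no batch. The authors aligned the reads with TopHat2 2.0.9 and Bowtie2 2.0.6 and deposited raw counts per Ensembl gene, with HTSeq among the tools in their processing notes. The authors also deposited FPKM values, which equal each count over a whole-number gene length and the sample's total (tested on 30502 genes, to within 0.01 bases). The genome build, the annotation and the strand setting are not given in the sources used here. Genes were named from GENCODE 29 on GRCh38, which holds 45342 of the 48162 identifiers.

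Counts were compared with edgeR 4.0.16 in R 4.3.3 (TMM, filterByExpr, glmQLFTest, no covariate besides the group), and p values were adjusted by Benjamini-Hochberg across 15860 genes, with a threshold of 0.05. SE is the absolute log2 fold change over the square root of F, and the 95% intervals rest on it. The common biological coefficient of variation was 0.0232. Shares and CNN3 were given exact permutation tests. The fits were tested on simulated data. Pairs of samples within a group varied beyond sampling noise (chi-square over its degrees of freedom, 1.56 to 1.98), and all 6 were kept as replicates. Such variation cannot show whether the samples came from separate cultures, and the p values treat them as independent.

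The genes named are the 10 genes, CNN3, genes overlapping them, the 5 genes most like WNT5A, and in each list up to 4 genes per direction with the smallest p and the 2 highest by FPKM; PTK7, CCND1 and untested genes were named after their values were seen. A gene that this rule also names is not reported here. The genes, lists and tests were chosen with earlier results of these data known. Alternatives were RLE, upper-quartile and total-count scaling, DESeq2 1.42.0, no filter, at least 10 counts in every sample, a replicate block, limma 3.58.1 on log2 of the deposited FPKM plus 1 or 0.1 (with a minimum mean FPKM of 1, or unfiltered), leaving out each sample, and another gene length.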

Additional observations from a re-analysis of the deposited data

How the results depend on the processing

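WNT7B passed under every alternative that was run, with a log2 fold change from 0.53 to 0.70, and no other of the 7 genes passed under any of them except FZD6 with scaling by total counts only, which made 2 genes passing in place of 1. ROR2 reversed without si-NC replicate 2, to 0.0085, within a range of -0.19 to 0.0085 as each sample was left out. Over all genes, the 2111 genes passing became 1087 in DESeq2, 1363 and 1353 in limma on log2(FPKM + 1) and log2(FPKM + 0.1) and 585 in limma without a filter. The other Wnt ligands had 0 genes passing in DESeq2, without a filter on low counts and in all 3 limma settings, and 0 to 1 as each sample was left out, with 1 only without si-CNN3 replicate 3. Signalling without beta-catenin had 11 genes passing here, 6 in DESeq2, 7 in both filtered limma settings, 2 in limma without a filter, and 7 to 10 as each sample was left out. Limma without a filter also left 0 genes among the other Frizzled receptors and co-receptors, 2 in secretion and extracellular control, 3 in the beta-catenin core and 1 among its targets. The cause of these losses was not tested. The share of FZD7 differed by -0.76 percentage points with the length of the longest coding transcript, against -0.59. Of 590 values of 37 named genes under the alternatives, 538 kept their direction and their side of the threshold, 47 no longer passed, 4 newly passed and 1 reversed.

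The groups share replicate numbers, but nothing in the labels says that a number marks a shared day or culture, and the deviations of same-numbered samples correlated at 0.0105, 0.0329 and 0.0275. With the replicate block, 2727 genes passed, WNT7B had a log2 fold change of 0.63, FZD6 an adjusted p of 0.0526 in edgeR, and 1 of the 7 genes passed, as without the block, whereas WLS and VPS35 newly passed.

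Depth limits ROR1, ROR2, WNT5B and WNT7A most, with at most 74 counts of any of them in a sample. These samples rest on 1 cell line and 1 siRNA against CNN3, and p values measure only the spread between 3 samples of a group.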
